A study of Mus musculus with 6 samples.

Results

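The genes described here encode the protein subunits of the mitochondrial ribosome. They were taken by name: every gene with a probe set (a group of array probes read as 1 value) annotated with a single symbol that starts with Mrpl or Mrps followed by a digit. This gave 76 genes of 18194 measured, from 156 probe sets, and each gene was represented by its brightest probe set, judged by the average of the 6 arrays. Messenger RNA was measured on Affymetrix arrays in LSK cells, the lineage-negative, Sca-1-positive and Kit-positive bone marrow cells that contain the blood stem cells, from mice of 6 months. One group was WT and the other Tet1 KO, both labelled with the strain CD57BL/6, with 3 samples and 1 array per sample in each. Tet1 is a dioxygenase that oxidises 5-methylcytosine in DNA, and the series title places it as a tumour suppressor of the blood. The labels give no allele, sex or treatment, and do not say whether a sample was 1 mouse or a pool, so p-values measure only the spread between these samples. All values are log2 intensities as deposited, and a difference is always Tet1 KO minus WT on that scale.

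The mitochondrial ribosome translates the few messages that mitochondrial DNA still encodes, all of them for membrane subunits of the respiratory chain and ATP synthase. Its own proteins are encoded in the nucleus, made in the cytosol and imported. Mrpl genes encode proteins of the large subunit, which forms the peptide bond and holds the exit tunnel, and Mrps genes those of the small subunit, which binds the message and decodes it. Some of these proteins have a bacterial homologue and others are found only in mitochondria. In blood stem cells mitochondrial output is held low at rest and increases as the cells divide and differentiate.

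The 3 WT arrays were alike, and the Tet1 KO arrays less so. Over all genes, Tet1 KO replicate 2 correlated with the other arrays at 0.946 to 0.951, while all other pairs lay between 0.975 and 0.987, so counts are also given without it. The brightest of 27 bacterial control probe sets, for RNA that mouse cells lack, read 4.87 on that array and no more than 4.37 elsewhere. Tet1 itself read 6.89, 6.80 and 6.75 on the WT arrays and 6.26, 5.63 and 5.51 on the Tet1 KO arrays, lower on all 3. Xist was at 4.58 on WT replicate 3 and 3.82 on Tet1 KO replicate 3, and between 11.8 and 12.2 on the other 4, so each group held 1 such array. Of 7 listed LSK markers 6 were measured, Kit, Cd34, Flt3, Mecom, Hlf and Slamf1, and in both groups all exceeded 4.39. That value, the mean over the arrays of the brightest bacterial control, is called the bacterial control level below. Ly6a, which encodes Sca-1, was not analysed here. Markers of other cells were mixed. Alas2 and Hba-a1 of erythroid cells, Cd3e and Cd3g of T cells and Ncr1 of NK cells averaged under 4.39 in both groups. So did Ms4a1 of B cells, Adgre1 of macrophages and Fcer1a of mast cells. Fcer1a, however, read 3.00, 5.81 and 3.56 on the Tet1 KO arrays and 3.70, 3.34 and 3.37 in WT, so replicate 2 sets its higher mean. Above it in both groups were Klf1 and Epor of erythroid cells, 3 megakaryocyte genes and 7 granulocyte genes. Also above it were Cd79a, Cd79b and Pax5 of B cells and Cd4 and Cd8a of T cells. The same held for Cd68 and Csf1r of monocytes and macrophages and for Cpa3 and Mcpt8 of mast cells and basophils. All 5 T and NK cell markers and all 3 mast cell and basophil markers had higher means in Tet1 KO, with Cd8a at 0.53. Among all genes 10280 of 18194 were higher, and dim genes as a class read higher. Cd3e, Cd3g, Ncr1 and Fcer1a of these markers were dim. Of the granulocyte markers 4 of 7 were higher and of the B cell markers 2 of 4, Pax5 at 0.42 and Cd79b at -0.42 among them. Lower were 4 of 6 LSK markers, 3 of 4 erythroid markers, 2 of 3 megakaryocyte markers and 1 of 3 monocyte and macrophage markers. Cd8a and Pax5 were the markers past an unadjusted p of 0.05, a threshold that 3.25% of all genes passed on the higher side. The part of other cells in the results was not tested. In such bulk samples fewer cells of a type and less RNA per cell cannot be told apart.

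Most mitochondrial ribosomal protein genes read slightly lower in Tet1 KO, and none passed the test across all genes. Of the 76, 63 had a lower mean in Tet1 KO and 13 a higher one. The median difference was -0.24, with quartiles of -0.37 and -0.10 and the extremes at -0.86 for Mrpl17 and 1.11 for Mrpl28. No member had an adjusted p under 0.05 in limma with Benjamini-Hochberg adjustment over all genes, where the share called was 0%, and the lowest adjusted p = 0.642. At an unadjusted p under 0.05, 6 members were lower and 1 was higher. The same threshold held 3.96% of all genes on the lower side and 3.25% on the higher side. In 17 members the Tet1 KO arrays were all under the WT arrays, and in 2 they were all over them, against 6.89% and 10.3% of all genes. With 3 arrays against 3 an exact permutation test of a single gene cannot give a two-sided p under 0.1, so none is given.

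All genes are not the nearest comparison, because bright genes as a class read lower in Tet1 KO. Of all genes 43.5% were lower, with a median of 0.05. Every member was bright, with a mean over the arrays between 6.46 and 12.3, above the bacterial control level. For each member the 200 other genes nearest in mean were therefore taken, 6468 different genes in all, called genes of like level below. Of these 65.6% were lower, with a median of -0.11, against 63 of 76 members, or 82.9%, with a median of -0.24. At an unadjusted p under 0.05, 6.09% of the genes of like level were lower and 1.35% higher, and without overlap 12.0% were lower and 3.35% higher. The 6 and 1 of 76 at an unadjusted p under 0.05 were thus near these shares, while the 63 of 76 by sign and the 17 of 76 without overlap lay further from them. The median of the members minus that of genes of like level was -0.12. Cyclic loess, which removes trends with level, put the median of the genes of like level at 0.00 and that of the members at -0.11. There 54 of 76 members were lower, against 49.7% of genes of like level. Fewer members than the 17 lay without overlap below WT with cyclic loess and with quantile normalization, as given at the end. The share of genes of like level was not counted for these, so the 17 is not shown to lie apart from it after such correction.

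**Figure D1:**
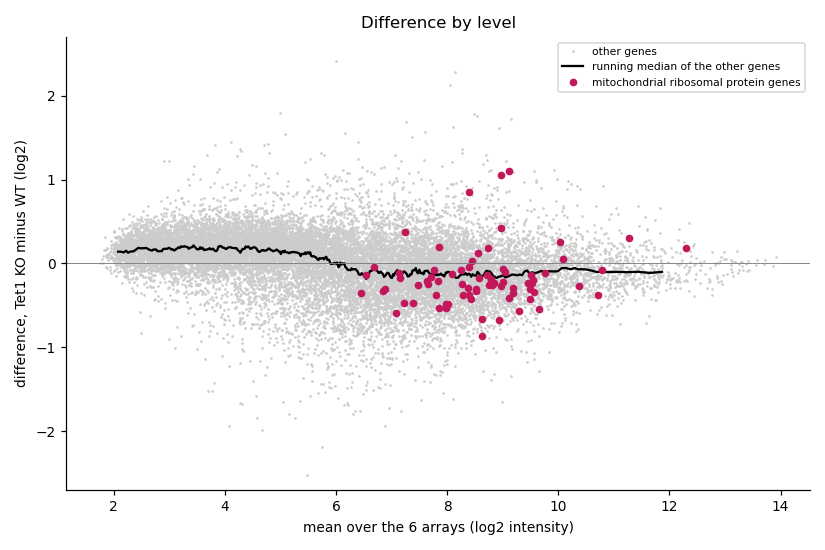
Difference between Tet1 KO and WT (log2, vertical axis) against the mean over the 6 arrays (log2 intensity, horizontal axis) for other genes in grey and the 76 mitochondrial ribosomal protein genes in red, with the running median of the other genes as a line. The line lies above 0 at low level and below 0 at high level, where all 76 members lie, and 63 of the 76 are below 0.

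The lower reading was shared by all Tet1 KO arrays, but set against genes of like level it was seen on replicates 1 and 3 and not on replicate 2. Relative to the WT mean, the median of the members was -0.19 on Tet1 KO replicate 1, -0.18 on replicate 2 and -0.27 on replicate 3. On the WT arrays it was between -0.03 and 0.01, but the WT mean is made of these arrays, which holds such values near 0. The genes of like level had medians of -0.08, -0.21 and -0.07 on the same Tet1 KO arrays. Of the 76 members, 61 were below the WT mean on replicate 1, 48 on replicate 2 and 63 on replicate 3. The shares among genes of like level were 61.1%, 65.0% and 57.9%. Below every WT array lay 41, 40 and 48 members on the 3 Tet1 KO arrays, where the shares among genes of like level were 37.9%, 52.3% and 37.9%. On replicate 2 the 40 of 76 were thus close to that share.

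**Figure D2:**
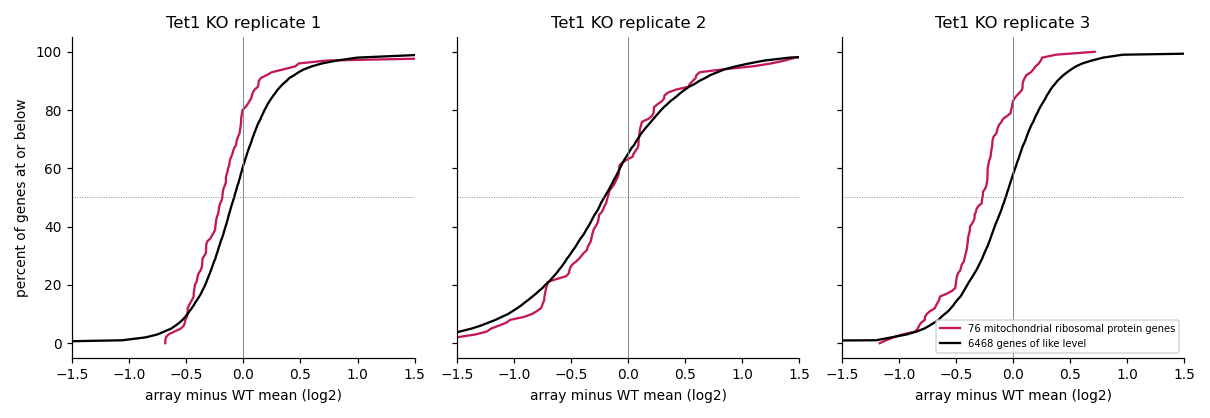
Cumulative distributions of the difference of each Tet1 KO array from the WT mean (log2, horizontal axis; percent of genes at or below a value, vertical axis) for the 76 members in red and the 6468 genes of like level in black. The red line is for most of its course to the left of the black one on Tet1 KO replicates 1 and 3. The medians there are -0.19 against -0.08 and -0.27 against -0.07. On replicate 2 the red line lies to the right in its lower part, with a 10th percentile of -0.84 against -1.05. The medians there are close, at -0.18 against -0.21.

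Without Tet1 KO replicate 2 the number of members lower by sign hardly changed, from 63 to 64, and 0 passed the adjusted test in limma there. Then 64 of 76 were lower, against 47.0% of all genes and 60.2% of genes of like level, and the median was -0.26 against -0.07 for genes of like level. At an unadjusted p under 0.05, 11 members were lower and 2 higher, where 4.65% of all genes and 7.25% of genes of like level were lower. The share on the higher side was not counted there. The 2 were Mrpl3 at 0.36 and Mrps9 at 1.93, and Mrps9 read 11.59 on Tet1 KO replicate 1 and 9.16 on replicate 3. With only 2 Tet1 KO arrays the groups separate more readily, and 32 members lay below every WT array, against 12.5% of all genes and 19.1% of genes of like level. Without Tet1 KO replicate 1 in its place 26 did so, against 12.9% and 21.9%. By sign 59 members were lower there, against 43.0% of all genes and 65.9% of genes of like level. At an unadjusted p under 0.05, 10 were lower there, against 5.86% and 9.15%.

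**Figure D3:**
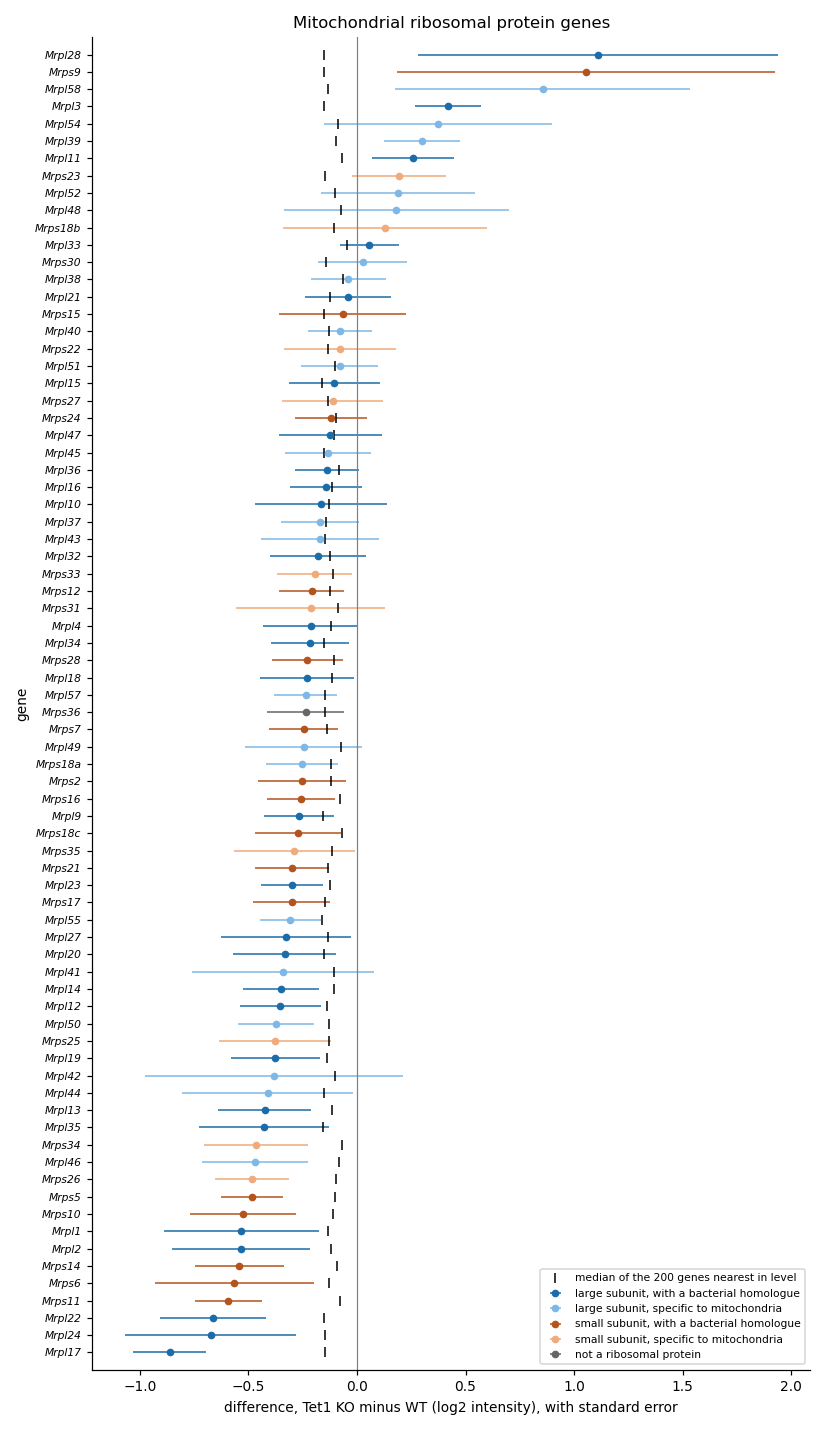
Difference between Tet1 KO and WT (log2, horizontal axis) for each of the 76 members (vertical axis), with its moderated standard error, coloured by subunit and by whether the protein has a bacterial homologue. Black ticks give the median of the 200 genes nearest in level, between -0.16 and -0.04, and most points lie to the left of their tick, from -0.86 for Mrpl17 to 1.11 for Mrpl28.

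Among the proteins of the large subunit with a bacterial homologue, 24 of 28 genes were lower, with a median of -0.25. Mrpl17, a protein whose bacterial counterpart lies near the exit of the tunnel through which the new chain leaves, had the lowest difference and the smallest p of all members. It read 8.92, 9.11 and 9.16 on the WT arrays and 8.39, 7.98 and 8.23 on the Tet1 KO arrays. The groups did not overlap, with WT higher throughout. The difference was -0.86 (SE 0.17), a Tet1 KO signal of 55.0% of WT, with an unadjusted limma p of 0.00147. The other 2 Mrpl17 probe sets were under the bacterial control level, so the gene rests on 1 probe set, and the mean of its probe sets gave -0.34. Mrpl22, whose bacterial counterpart lines the tunnel wall, read 8.76, 8.82 and 9.28 in WT and 8.48, 8.53 and 7.86 in Tet1 KO. Its difference was -0.66 (SE 0.24), again without overlap, with an unadjusted p of 0.0306. Mrpl23, at the tunnel exit in bacteria and there a docking site for a chaperone, read 9.56, 9.75 and 9.63 against 9.44, 9.33 and 9.27. The difference was small, at -0.30 (SE 0.14), or -0.17 with cyclic loess, but both groups were tight and did not overlap.

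The bacterial counterparts of 6 members surround the tunnel exit, a grouping made after the values were seen and therefore given with no test. All 6 were lower, with a median of -0.48, or -0.29 without Tet1 KO replicate 2, where 65.6% of genes of like level and 43.5% of all genes were lower with all arrays. Lower without overlap were 4 of them, Mrpl17, Mrpl22, Mrpl23 and Mrpl24, against 12.0% of genes of like level and 6.89% of all genes. Mrpl24 read 9.16, 9.26 and 9.40 in WT and 9.15, 7.64 and 9.01 in Tet1 KO. Its difference of -0.67 was set by Tet1 KO replicate 2 and was -0.19 without it. Mrpl32 and Mrpl47 gave -0.18 and -0.12 with overlapping groups, and Mrpl32 was at -0.02 without Tet1 KO replicate 2 and at -0.39 without replicate 3. Mrpl47 turned to 0.21 with the mean of its probe sets, to 0.0042 with cyclic loess and to 0.07 without Tet1 KO replicate 3.

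The members on the higher side of this class differed in kind. Mrpl3, whose bacterial counterpart reaches to the site of peptide bond formation, was the 1 member higher at an unadjusted p under 0.05. It read 8.79, 8.73 and 8.77 in WT and 9.25, 9.31 and 8.99 in Tet1 KO, with no overlap. The difference was 0.42 (SE 0.15), a signal of 134% of WT, with an unadjusted p of 0.028. Another Mrpl3 probe set above the bacterial control level, at a mean of 7.30, gave -0.08, 2 dim ones under that level gave 0.11 and -0.73, and the mean of all 4 gave -0.07, so the higher reading rests on the brightest probe set. Mrpl11, a protein at the base of the stalk that binds translation factors, differed by 0.26 (SE 0.19) with overlap, and by 0.12 without Tet1 KO replicate 2. Its 3 other probe sets were also higher, at 0.14, 0.10 and 0.18. Mrpl28 differed by 1.11, the highest of all members, but this came from 1 array. It read 11.80 on Tet1 KO replicate 1 and 8.79 and 8.43 on the other Tet1 KO arrays, where WT read 8.66, 8.42 and 8.62, and the difference was 0.04 without replicate 1 and 1.73 without replicate 3. Mrpl33 was near 0, at 0.06, or -0.12 when its probe sets were averaged. Of the stalk proteins that were lower, Mrpl12, which recruits translation factors, read 9.04, 9.48 and 9.55 in WT and 8.92, 9.14 and 8.95 in Tet1 KO. Its difference was -0.35, or -0.22 with cyclic loess.

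The 300 bases around the start of 3 of these genes are shown because they hold the genes with the clearest differences down, Mrpl17 and Mrps11 of the small subunit described further on, and the clearest up, Mrpl3. They run from 250 bases before to 50 after the RefSeq start in GRCm38.p6, and are Mrpl17 at chr7:105811038-105811337 on the minus strand, Mrps11 at chr7:78782881-78783180 on the plus strand and Mrpl3 at chr9:105053018-105053317 on the plus strand. Capitals mark TGCGCA, a stretch of the NRF1 consensus, CCGGAA, the core bound by ETS factors such as GABP, and AAGATGG, the core bound by YY1, on either strand. These factors are known regulators of nuclear genes for mitochondrial proteins.
Mrpl17: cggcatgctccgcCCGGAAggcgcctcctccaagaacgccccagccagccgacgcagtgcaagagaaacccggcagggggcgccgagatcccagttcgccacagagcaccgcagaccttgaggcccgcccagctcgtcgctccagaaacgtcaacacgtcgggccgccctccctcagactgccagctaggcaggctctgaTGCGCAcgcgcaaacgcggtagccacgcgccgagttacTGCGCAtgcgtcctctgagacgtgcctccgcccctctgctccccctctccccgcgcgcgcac
Mrps11: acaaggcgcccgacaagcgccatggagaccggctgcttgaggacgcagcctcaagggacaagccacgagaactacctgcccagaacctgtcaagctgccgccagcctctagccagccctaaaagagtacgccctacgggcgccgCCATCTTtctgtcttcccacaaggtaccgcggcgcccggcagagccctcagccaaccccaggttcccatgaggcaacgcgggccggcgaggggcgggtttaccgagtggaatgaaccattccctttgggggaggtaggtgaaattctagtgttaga
Mrpl3: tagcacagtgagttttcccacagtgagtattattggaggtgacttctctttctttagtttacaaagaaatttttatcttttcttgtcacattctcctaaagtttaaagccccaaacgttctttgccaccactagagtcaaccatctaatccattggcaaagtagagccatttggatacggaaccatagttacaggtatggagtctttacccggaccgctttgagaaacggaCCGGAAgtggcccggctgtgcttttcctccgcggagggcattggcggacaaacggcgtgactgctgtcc

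The Mrpl17 window held 2 NRF1 cores and 1 ETS core, the Mrps11 window 1 YY1 core, and the Mrpl3 window 1 ETS core. Of the 76 members 67 had an entry in the promoter table, and the first entry of each was used. The NRF1 core was in 21 of the 67, or 31.3%, against 16.6% of 5309 promoters of genes of like level and 8.06% of 27025 promoters in all. The ETS core was in 37, or 55.2%, against 31.7% and 15.2%, and the YY1 core in 13, or 19.4%, against 8.27% and 6.48%. The CCAAT box, bound by NF-Y and searched as CCAAT on either strand, was in 38.8% of the members, 38.3% of genes of like level and 37.9% of all promoters. The median G and C content was 58.3% in the members, 61.7% in genes of like level and 52.7% in all. Members with and without the NRF1 core had medians of -0.24 and -0.24, with 16 of 21 and 39 of 46 lower. Those with and without the ETS core had medians of -0.20 and -0.30, with 28 of 37 and 27 of 30 lower, and those with and without the YY1 core -0.21 and -0.25, with 12 of 13 and 43 of 54 lower. With and without the CCAAT box the medians were -0.22 and -0.25, with 19 of 26 and 36 of 41 lower. A match of letters is not a bound site, and these differences between members were not tested.

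The large subunit proteins that only mitochondria have had the median nearest 0 of the 4 classes. Of 21 genes, 15 were lower, with a median of -0.17, and 0 passed an unadjusted p of 0.05 in either direction. Mrpl55 read 7.04 on all 3 WT arrays and 6.77, 6.82 and 6.62 in Tet1 KO. The groups were tight and apart, and the difference was -0.31 (SE 0.14). Mrpl50 read 8.45, 8.55 and 8.43 against 8.34, 8.15 and 7.83, a difference of -0.37 (SE 0.18) that was -0.24 without Tet1 KO replicate 3 and with cyclic loess. Mrpl39 was higher without overlap, at 11.20, 11.12 and 11.02 in WT and 11.24, 11.70 and 11.30 in Tet1 KO. Its difference of 0.30 (SE 0.18) was 0.16 without Tet1 KO replicate 2, and its other probe set gave 0.03.

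Mrpl58, a peptidyl-tRNA hydrolase that frees chains from stalled ribosomes, Mrpl54 and Mrpl52 were also higher in the mean, each because of Tet1 KO replicate 2. Mrpl58 read 8.09, 8.07 and 7.71 in WT and 7.85, 10.53 and 8.06 in Tet1 KO, and its difference of 0.85 (SE 0.68) became -0.0048 without that array and 1.33 without replicate 1. Mrpl54 read 6.46, 7.32 and 7.37 against 7.13, 8.57 and 6.57, and its 0.37 turned to -0.20. Mrpl52 read 12.29, 12.07 and 12.27 against 12.06, 13.25 and 11.89, and its 0.19 turned to -0.23. Mrps30 and Mrps18a carry small subunit names but belong to the large subunit in mammals, and gave 0.03 and -0.25. Mrps30 had no steady direction, at -0.12 without Tet1 KO replicate 2 and 0.22 without replicate 1, and Mrps18a was at -0.12 without replicate 1 and -0.14 with cyclic loess.

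The small subunit was lower in a larger share of its genes than the large one, 23 of 26 against 39 of 49, with medians of -0.26 and -0.22, a difference that was not tested. On Tet1 KO replicates 1, 2 and 3 the small subunit had medians of -0.29, -0.31 and -0.33 relative to the WT mean, and the large subunit -0.15, -0.12 and -0.23. Of the 16 genes with a bacterial homologue, 15 were lower, with a median of -0.26. Mrps11, a protein of the platform of the subunit, read 7.43, 7.27 and 7.45 in WT and 6.90, 6.87 and 6.61 in Tet1 KO. No Tet1 KO array reached any WT array, and the difference was -0.59 (SE 0.15), with an unadjusted p of 0.00651. Mrps5, whose bacterial counterpart lies where the message enters, read 8.38, 8.12 and 8.25 against 7.82, 7.73 and 7.75. The Tet1 KO arrays lay close together and all below WT, and the difference was -0.48 (SE 0.14), with an unadjusted p of 0.0124. Its 4 dimmer probe sets were all lower too, at -0.13, -0.02, -0.25 and -0.21. Mrps14, of the head of the subunit, read 10.23, 9.86 and 9.70 against 9.51, 9.12 and 9.54, a difference of -0.54 (SE 0.21) with an unadjusted p of 0.0341, and its dimmer probe sets gave -0.35 and, under the bacterial control level, -0.61.

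**Figure D4:**
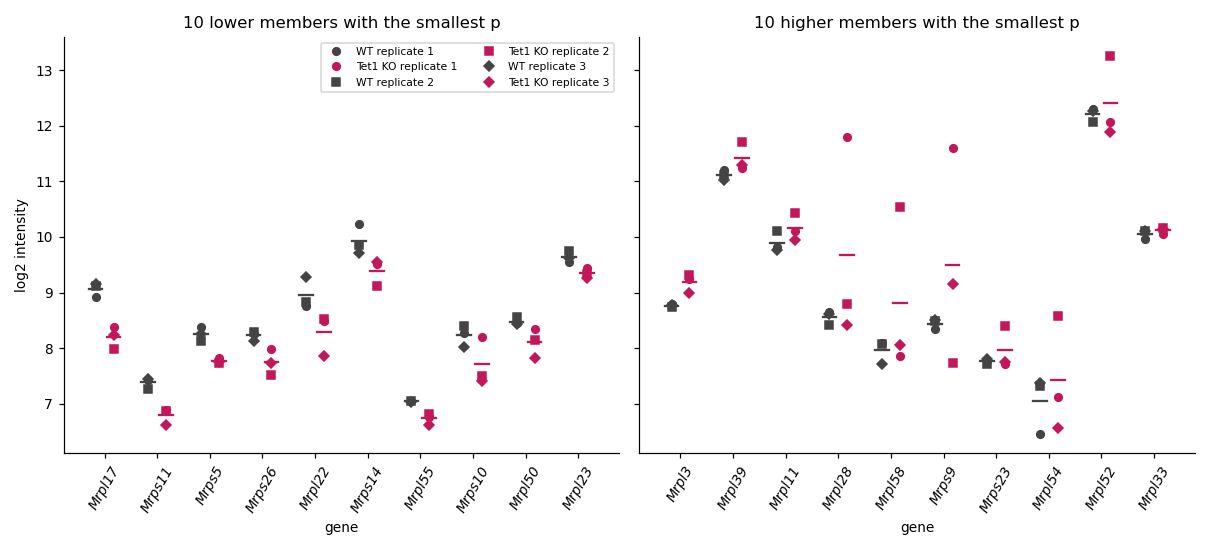
Log2 intensity (vertical axis) on each of the 6 arrays for the 10 lower and the 10 higher members with the smallest p, WT in grey and Tet1 KO in red, with a symbol for each replicate number and a line at each group mean. On the left the groups are apart for all genes but Mrps10, and on the right Mrpl28, Mrps9 and Mrpl58 each have 1 Tet1 KO array far above the rest, at 11.80, 11.59 and 10.53.

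In the same class Mrps10 overlapped between groups through 1 array. It read 8.27, 8.41 and 8.03 in WT and 8.21, 7.51 and 7.42 in Tet1 KO. It differed by -0.52 (SE 0.25), and a dimmer probe set gave 0.26. Mrps6 differed by -0.56, but its WT arrays read 10.44, 8.97 and 9.31, and it was at -0.13 without WT replicate 1 and at -0.87 without WT replicate 2. Mrps9 was the 1 gene of the class on the higher side. It read 8.34, 8.48 and 8.51 in WT and 11.59, 7.74 and 9.16 in Tet1 KO, so the Tet1 KO arrays lay on both sides of WT, and its difference of 1.05 (SE 0.87) was 0.01 without Tet1 KO replicate 1 and 1.93 without replicate 2.

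Of the 10 small subunit proteins that are specific to mitochondria, 8 were lower, with a median of -0.20. Mrps26 read 8.26, 8.29 and 8.14 in WT and 7.99, 7.52 and 7.73 in Tet1 KO. The groups were apart, with a difference of -0.48 (SE 0.17) and an unadjusted p of 0.0258, and its other probe set was under the bacterial control level. Mrps23 was higher by 0.19 (SE 0.22), but was at -0.03 with Tet1 KO replicate 2 left out and at -0.13 when its probe sets were averaged. Mrps36 carries the name of the family but is known as a subunit of the 2-oxoglutarate dehydrogenase complex, and gave -0.24 with overlapping groups, or -0.11 with cyclic loess and -0.10 without Tet1 KO replicate 3.

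Further probe sets gave another reading of the same genes. For 42 members there was more than 1, in all 80 dimmer probe sets, of which 17 read under the bacterial control level. Of the 63 above it, from 33 genes, 41, or 65.1%, were lower in Tet1 KO, with a median of -0.16, and 44 had the sign of the brightest probe set of their gene. At an unadjusted p under 0.05 in a fit over all probe sets, 4 of the 63 were lower and 2 higher. Among dimmer probe sets of all other genes above the same level 59.1% were lower, 5.55% lower at that threshold and 1.92% higher, and 62.6% were lower among those of genes of like level. The shares of the members were thus near those of other genes. Members whose probe sets went apart at that threshold included Mrpl15, where the brightest gave -0.10 and a dimmer one 1.06 (SE 0.41), and Mrpl47, with -0.12 and 0.49 (SE 0.15). The probe sets of Mrpl13 were all lower, at -0.43, -0.42, -0.59 and -0.54, although the last was too dim to exceed the bacterial controls. Its brightest gave -0.23 without WT replicate 1. Averaging probe sets moved Mrps11 to -0.29, Mrps5 to -0.22, Mrps26 to -0.15 and Mrps10 to -0.13, with dim probe sets counted alike.

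**Figure D5:**
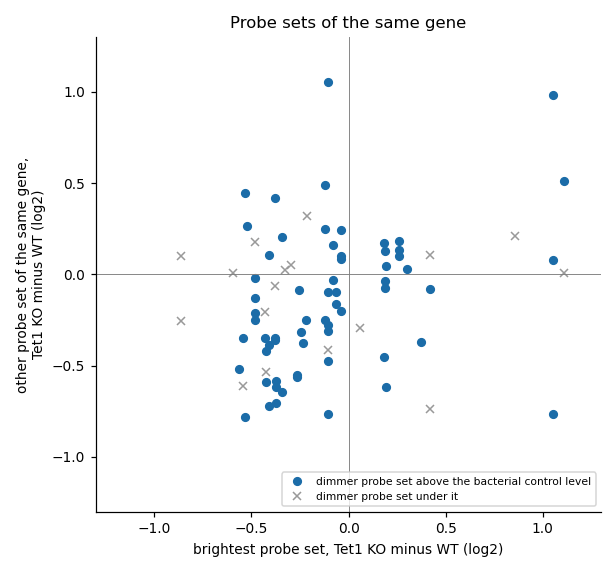
Difference between Tet1 KO and WT (log2) of each of the 80 dimmer probe sets (vertical axis) against that of the brightest probe set of the same gene (horizontal axis). Of the 63 blue points above the bacterial control level 44 lie in the lower left or upper right, where both probe sets have the same sign, and 41 lie below 0.

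Several members had 1 Tet1 KO array far from the other arrays, but no more often than genes of like level. The range over the Tet1 KO arrays exceeded 1 for 16 members, or 21.1%, and the range over the WT arrays for 1, Mrps6, or 1.32%. The shares of genes of like level were 26.7% and 5.63%. In 12 of the 16 the array farthest from the median was replicate 2, in 3 it was replicate 1 and in 1 it was replicate 3. Among the 1730 such genes of like level it was replicate 2 in 1139, replicate 1 in 325 and replicate 3 in 266. Mrpl42, for example, read 10.61, 10.94 and 11.15 in WT and 11.71, 9.16 and 10.68 in Tet1 KO, and Mrpl44, a protein with a ribonuclease III fold, read 9.29, 9.26 and 9.42 against 9.29, 7.96 and 9.50. Without Tet1 KO replicate 2 their differences turned from -0.38 to 0.30 and from -0.41 to 0.07. The median range was 0.50 in Tet1 KO and 0.32 in WT for the members, and 0.64 and 0.33 for genes of like level.

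Other genes of mitochondrial translation were read from lists compiled with earlier results known. Beside all the counts below stand 43.5% of all genes lower by sign, and 65.6% of the genes of the members' level. At an unadjusted p under 0.05, 3.96% of all genes were lower and 3.25% higher. No genes were matched in level to these lists, and some listed genes, such as Tsfm, Guf1 and Sars2, were dimmer than every member. Ribosomal proteins under other symbols gave 3 of 4 lower. Gadd45gip1, a large subunit protein also called Crif1, read 7.75, 7.27 and 7.71 in WT and 6.90, 6.57 and 6.66 in Tet1 KO. It did not overlap, and its difference of -0.87 (SE 0.19) had an unadjusted limma p of 0.00287 and an adjusted p = 0.642. Chchd1, of the small subunit, gave -0.41, or -0.27 without WT replicate 3, and Ptcd3, an RNA-binding protein of the small subunit, -0.09, which was -0.39 without Tet1 KO replicate 2 and 0.22 without replicate 3. Of 11 translation factors 9 were lower, 1 of them at an unadjusted p under 0.05, the release factor gene Mtrf1l at -0.58 (SE 0.19). On the higher side 1 passed it, Tsfm, whose product recharges the elongation factor, at 0.40 (SE 0.14), with 5.54, 5.56 and 5.76 in WT and 5.97, 6.07 and 6.03 in Tet1 KO. Guf1, a further GTPase of elongation, gave -0.64, or -0.30 without Tet1 KO replicate 2.

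Among 16 mitochondrial aminoacyl-tRNA synthetases 10 were lower, or 62.5%, with a median of -0.16. The shares were 43.5% for all genes and 65.6% for genes of the members' level. Past an unadjusted p of 0.05 was 1, Sars2, for serine, at -0.56 (SE 0.22), where 3.96% of all genes were lower. Pars2 and Cars2 gave -0.46 and -0.32, and all 3 were smaller without Tet1 KO replicate 2, at -0.34, -0.26 and -0.17, while Pars2 was at -0.74 without replicate 1. Of 18 genes of ribosome assembly and ribosomal RNA modification 11 were lower, or 61.1%, with a median of -0.05. Mrm3, which methylates the large ribosomal RNA, read 7.14, 7.40 and 6.94 against 6.78, 5.89 and 6.20, a difference of -0.87 (SE 0.26), and was the 1 gene of the list at an unadjusted p under 0.05. The assembly GTPase Noa1 gave -0.30, or -0.18 with cyclic loess. The helicase Dhx30 gave -1.40, which was -0.47 without WT replicate 2 and -0.55 when its probe sets were averaged.

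Further lists held genes upstream of the ribosome. For mitochondrial DNA transcription and maintenance 5 of 11 were lower, or 45.5%, with a median of 0.04, and 0 passed an unadjusted p of 0.05. Of all genes 43.5% were lower, with a median of 0.05. Tfam, the factor that packs mitochondrial DNA, gave -0.36 at its brightest probe set and 0.19 when its probe sets were averaged, Lrpprc, which stabilises mitochondrial messages, 0.35, and the termination factor Mterf1a -0.87, or -0.09 without Tet1 KO replicate 2 and -1.48 without replicate 1. Leaving out Tet1 KO replicate 2 put Lrpprc at 0.14, and leaving out WT replicate 1 put it at 0.16. Of 10 nuclear regulators of mitochondrial genes 7 were lower, or 70%, with a median of -0.31 and 0 past that threshold. Genes of the members' level were lower in 65.6%, with a median of -0.11. Nrf1 read 7.08, 7.46 and 7.45 in WT and 7.07, 6.23 and 7.02 in Tet1 KO. The difference of -0.56 (SE 0.26) was -0.29 without Tet1 KO replicate 2 and -0.10 when its probe sets were averaged. Myc gave -0.38 (SE 0.20), and the coactivator gene Pprc1 -0.34, or -0.14 without WT replicate 1.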

How the data were processed

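Each of the 6 LSK samples, 3 per genotype, was hybridised to 1 array. The authors deposited log2 intensities for 45101 probe sets. Their background correction, normalization and summary method are not given in the sources used here, and nothing further was done to the values in the reported settings. Array medians differed by at most 0.0694. For arrays, the number of samples limits the precision. Every deposited column was matched to a sample.

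Probe sets were named from GEO's platform annotation: 34958 had 1 symbol, 932 several and 9211 none, and only the first were used. All 76 members matched a symbol in the RefSeq table of GRCm38.p6, which also gave the promoters. Tet1 KO and WT were compared with limma 3.58.1 in R 4.3.3 (lmFit and eBayes, group as the only term, Benjamini-Hochberg adjustment over 18194 genes), tested on simulated data first. The bacterial control level is the mean over the arrays of the brightest of 27 control probe sets. Figures used matplotlib 3.10.9. Named were the 10 lower and 10 higher members with the smallest p, members with a probe set opposed in sign to the brightest at an unadjusted p under 0.05 in either, the 3 genes of each other list with the smallest p, and Tet1. Mrpl12, Mrpl13, Mrpl24, Mrpl32, Mrps6, Mrps18a, Mrps30, Mrps36, the members named for their spread or their probe sets, and the tunnel exit group were chosen after their values were seen. The members, classes and lists were chosen with earlier results of these data known. Some listed genes and markers were not analysed here. Alternatives were quantile normalization, shifted medians, cyclic loess, means of probe sets, filters on level, variance trends, array weights, a replicate block, the Xist state, each array left out, and fewer or more genes of like level per member.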

Additional observations from a re-analysis of the deposited data

How the results depend on the processing

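No member and no gene of the other translation lists reached an adjusted p under 0.05 in limma under any alternative run, against 6 lower and 1 higher member at an unadjusted p under 0.05. The median of the members stayed below that of genes of like level in all of them, by -0.08 to -0.19. Its value was -0.16 after quantile normalization and -0.11 after cyclic loess, and members lying wholly below WT numbered 10 and 9 there. Leaving out each array in turn gave 4 to 11 members lower and 0 to 2 higher at an unadjusted p under 0.05, and 18 to 32 wholly below WT. Among genes of like level the share lower at that threshold rose from 6.09% to 7.25% without Tet1 KO replicate 2 and 9.15% without replicate 1. The share wholly below WT rose from 12.0% to 19.1% and 21.9%. Such shares were not counted for the other alternatives, so the other counts of members here have none beside them. Those counts therefore do not set the members apart from other genes. Members higher at that threshold were 0 with the mean of probe sets, 2 with array weights and 0 with the replicate block. The samples share only their replicate numbers (correlations of deviations 0.0107, -0.00992 and 0.0258), and the block left 4 members lower at that threshold. Over 51 named genes, 839 of 863 values kept their direction. Filters on level, variance trends, the replicate block and the Xist state leave each gene's difference unchanged, so directions and the members' median were fixed. Many of the 51 genes were also named for the smallest p in these data. With the mean of probe sets the direction turned for Mrpl3 at -0.072, Mrps23 at -0.13, Mrpl33 at -0.12, Mrpl47 at 0.21 and Tfam at 0.19. With cyclic loess it turned for Mrpl15 at 0.025, Mrpl47 at 0.0042 and Ptcd3 at 0.043, and with array weights for Mrpl52 at -0.084, Mrpl42 at 0.15 and Mrps30 at -0.097. Leaving out each array in turn, Mrpl58 ran from -0.0048 to 1.33, Mrps23 from -0.028 to 0.32, Mrpl54 from -0.20 to 0.80, Mrpl52 from -0.23 to 0.44, Mrpl42 from -0.98 to 0.30, Mrpl44 from -0.70 to 0.068 and Mrps30 from -0.12 to 0.22, each turning without Tet1 KO replicate 2. Likewise Mrpl15 ran from -0.23 to 0.047, Mrpl47 from -0.28 to 0.068 and Ptcd3 from -0.39 to 0.22, each turning without Tet1 KO replicate 3, and Mrpl15 also without WT replicate 3. Mrps30 further turned to -0.020 without WT replicate 1 and without Tet1 KO replicate 3. The causes were not tested. The 3 arrays a group limit what can be called, and probe sets near the bacterial control level say little.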
